A study of Bos indicus with 9 samples.

Results

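The chromatin around CHRNA1 was described in 3 cattle tissues as the peaks that overlap an 800 kb window of chromosome 2, from 21.7 to 22.5 Mb on ARS-UCD1.2. This window held 54 of the 140923 peaks in the deposited lists, of which 46 were hypothalamus peaks (of 78528), 6 were muscle peaks (of 40104), and 2 were liver peaks (of 22291). The members were chosen by position, around a gene selected on the muscle list's AUC, summit, and lack of overlap with the other lists at its start, so the position, length, strength, and sharing of the members are given as a description and were not tested. ATAC-seq, in which the Tn5 transposase cuts open DNA and the fragments between cuts are sequenced, was done on frozen hypothalamus, muscle, and liver of the same 3 unrelated, post-pubertal Brahman heifers, giving 9 libraries. Brahman are indicine cattle, no treatment is given for the heifers, and their exact age is not stated. The 3 heifers of a tissue were combined by the authors in 1 consensus peak list, so no value of a single heifer and no spread between heifers can be given. The lists carry no read counts, and the sequencing depth of the libraries was not used here. Each peak has an area under the curve of −log10 p (AUC), the signal that Genrich reports, and a −log10 p at the summit, the highest point of the peak. Neither value was scaled between lists, so strength was read as the percentile of a peak in its own list, the percentage of peaks there with a lower value. In bulk tissue, fewer cells of a type and less open chromatin per cell cannot be told apart, and a missing peak says only that the peak caller's limits were not reached. No listed peak had an AUC under 200.0, and summits began at a −log10 p of 2.86 (hypothalamus) or 2.77 (muscle and liver).

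CHRNA1 encodes the alpha 1 subunit of the nicotinic acetylcholine receptor of skeletal muscle, the subunit that carries most of the acetylcholine binding site. The receptor is a ligand-gated cation channel that sits at the neuromuscular junction, where acetylcholine released by the motor neuron opens it and depolarizes the muscle fiber. In innervated fibers its genes are read mainly by the nuclei under the synapse, while neurons of the brain use other subunits of the same family.

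CHRNA1 lies on the forward strand of chromosome 2 from 22084351 to 22103945, a span of 19595 bp. Positions of genes are those of the RefSeq models with which the authors annotated their peaks. The other models in the window are ATF2 from 21711950 to 21793326, CHN1 from 21843101 to 22045349 with a shorter model that begins at 21997089, WIPF1 from 22218032 to 22259091, and SCRN3 on the reverse strand from 22365325 to 22397277. ATF2 encodes a transcription factor of the leucine zipper type, CHN1 encodes chimerin 1, which turns off the small GTPase Rac and is known from the brain, WIPF1 encodes a partner of the Wiskott-Aldrich syndrome proteins that remodel actin, and SCRN3 encodes secernin 3. In the RefSeq order of genes of another indicine assembly, GPR155 lies between WIPF1 and SCRN3, and CIR1 and SP9 lie between SCRN3 and OLA1. These 3 genes have no position on ARS-UCD1.2 here, so a peak at one of their starts cannot be told from an intergenic peak.

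The CHRNA1 start site was covered by a peak in muscle and in no other tissue. This peak extends from 22084093 to 22084422 (330 bp), and its summit at 22084238 lies 113 bp upstream of the start site. Its AUC was 683, at percentile 50.2 of the muscle list, and its summit −log10 p was 5.59, at percentile 54.0. It was therefore close to the middle of the muscle list in signal, whereas its length was at percentile 28.7. Per bp of length its AUC was 2.07, at percentile 68.2, so the peak was short for its signal. Among the 10976 muscle peaks on chromosomes 1 to 29 and X with no overlap in the other lists, whose median summit −log10 p was 4.53, the CHRNA1 peak was at percentile 75.1 by summit, 68.2 by AUC, and 33.1 by length. Its lack of overlap at 1 bp was part of the choice of the gene, and a rule of 50% of the shorter peak could not change it. It also stood alone when a peak within 1 kb counted as shared, as the nearest hypothalamus peak was 7693 bp away.

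Hypothalamus had no peak over the CHRNA1 start site but had 3 weak peaks around the gene. The nearest ends 7951 bp upstream of the start site, from 22076116 to 22076400, with an AUC of 503 (percentile 33.4) and a summit −log10 p of 5.30 (percentile 40.7). Another lies further upstream from 22066770 to 22066978, with a summit −log10 p of 4.61 (percentile 27.9). The third lies inside the gene toward its 3′ end, from 22100704 to 22100928, with a summit −log10 p of 4.58 (percentile 27.2). All 3 were in the lower part of the hypothalamus list and none overlapped a muscle or liver peak. In liver, the nearest peak to the start site was 235143 bp away. Muscle had no peak inside the gene beyond the start site, so the 330 bp at the start were all the open chromatin listed for muscle at CHRNA1.

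**Figure D1:**
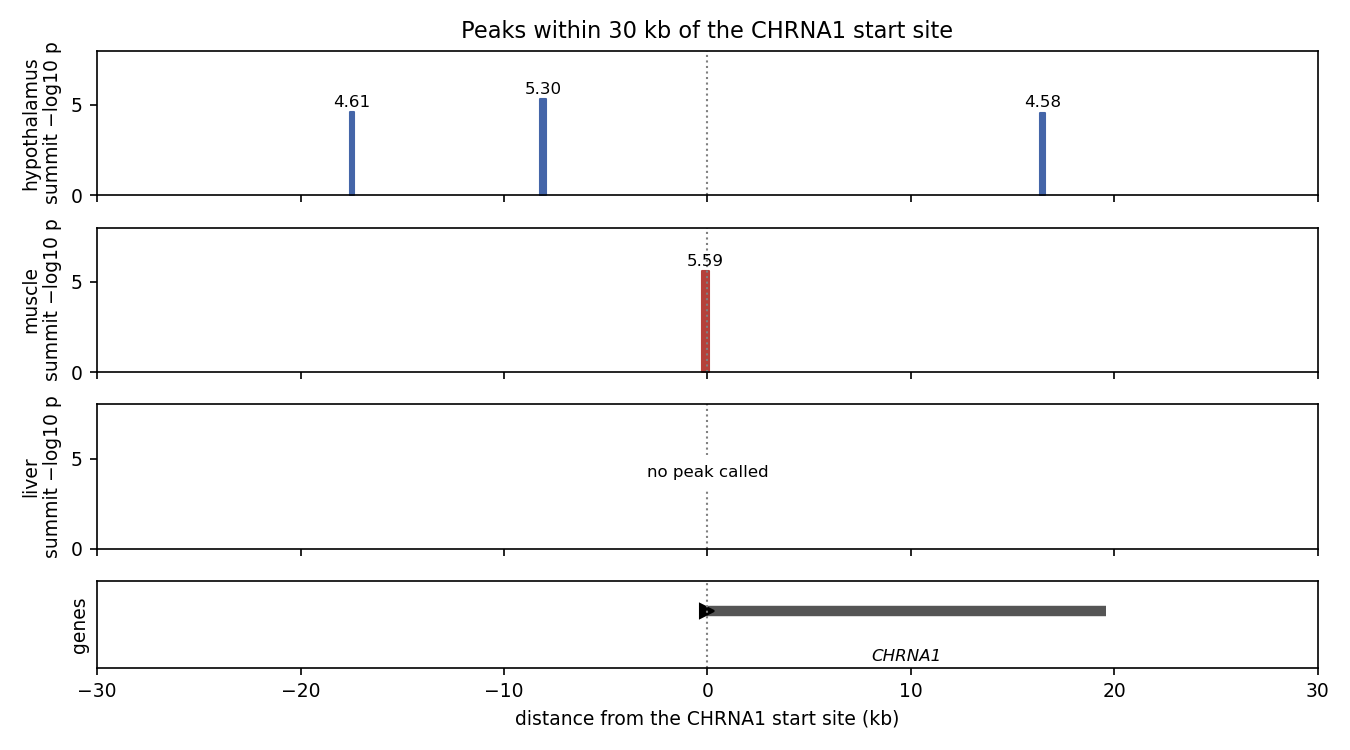
Peaks within 30 kb of the CHRNA1 start site in each list, drawn to their extent along the distance from the start site (x axis, kb) and to their summit −log10 p (y axis, number above each peak). The only muscle peak (5.59) sits on the start site, the 3 hypothalamus peaks (4.61, 5.30, and 4.58) lie away from it, and liver has no peak here.

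The other muscle-only peak of the window was stronger than the one at CHRNA1. It lies within the CHN1 gene body from 21960277 to 21960988 (712 bp), with its summit 123.6 kb upstream of the CHRNA1 start site. Its AUC was 1746 (percentile 79.5) and its summit −log10 p was 7.71 (percentile 79.0). This peak falls in the longest stretch without a hypothalamus peak in the window, 115083 bp from 21881796 to 21996878. Thus, 2 of the 6 muscle peaks (33.3%, Wilson 95% interval 9.68 to 70.0) had no overlap in another tissue, against 28.5% of the whole muscle list and 36.0% of its peaks on chromosomes 1 to 29 and X.

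The remaining 4 muscle peaks each overlapped a hypothalamus peak, and 2 of them overlapped a liver peak as well. The strongest is at the ATF2 start site, from 21711327 to 21712549, with an AUC of 3704 and a summit −log10 p of 10.73 (percentile 93.8). The peak between WIPF1 and SCRN3 from 22319300 to 22320066 had a summit −log10 p of 6.77 (percentile 70.0), and the peak within CHN1 from 21859091 to 21859344 had 5.11 (percentile 45.6). The weakest, from 22189492 to 22189845 between CHRNA1 and WIPF1, had an AUC of 274 and a summit −log10 p of 3.84 (percentile 13.2). The CHRNA1 peak was the fourth of the 6 by either value.

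**Figure D2:**
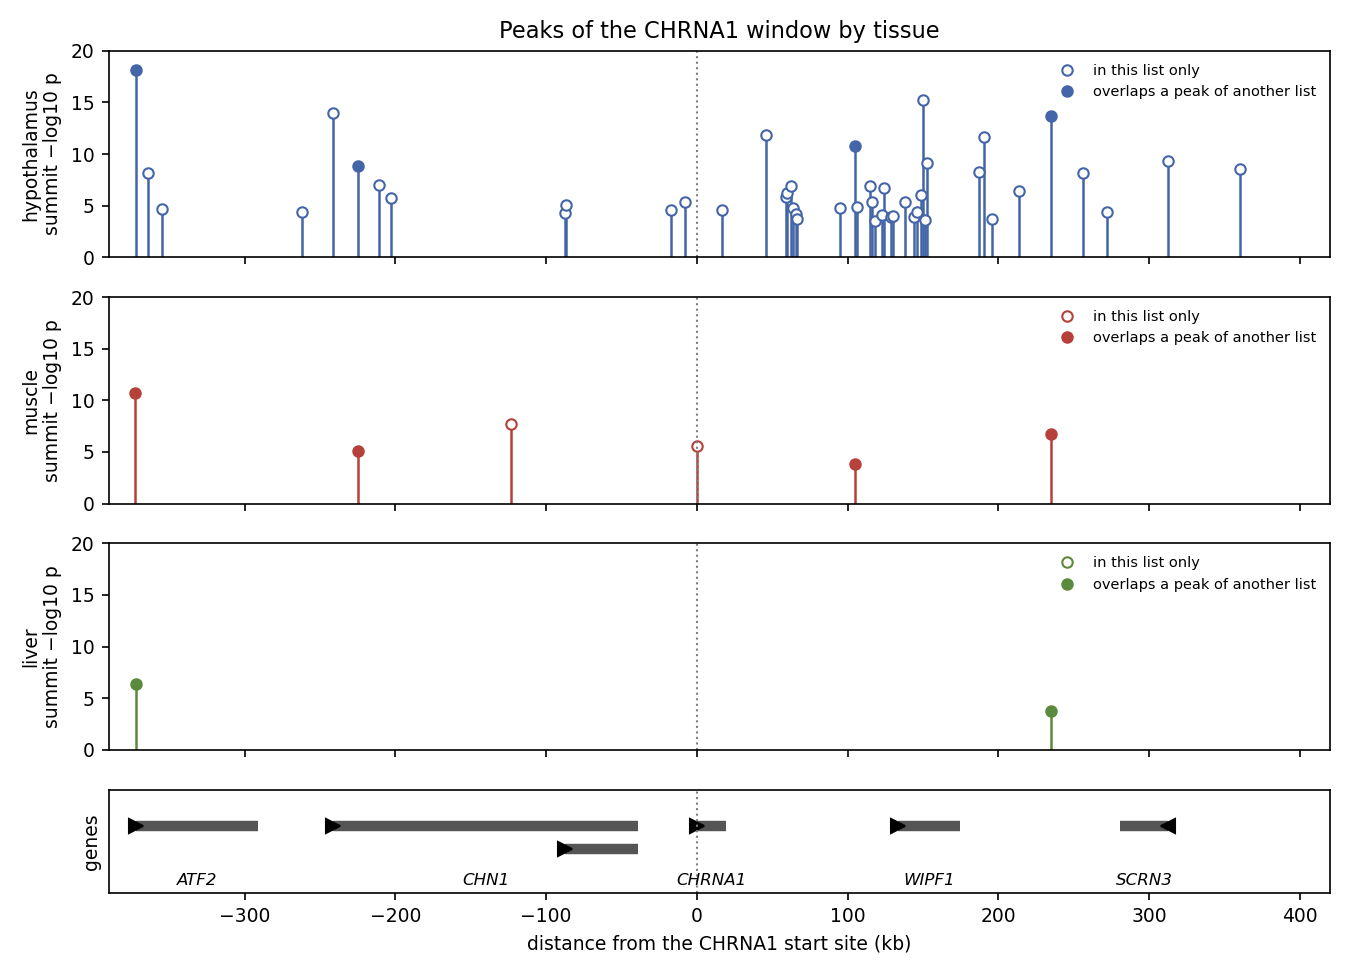
Summit −log10 p (y axis) of every peak of the window against the distance of its summit from the CHRNA1 start site (x axis, kb), by tissue, with gene models and start sites (arrowheads) below. Open circles are peaks of that list only, and filled circles overlap a peak of another list. Of the 46 hypothalamus peaks, 24 crowd between the ends of CHRNA1 and WIPF1, the 6 muscle peaks are spread over the window, and the 2 liver peaks coincide with peaks of the other tissues.

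The 4 shared regions held a peak in hypothalamus and muscle, and those at ATF2 and between WIPF1 and SCRN3 held a liver peak too. At the ATF2 start site, the hypothalamus peak had a summit −log10 p of 18.15, the muscle peak 10.73, and the liver peak 6.41. The hypothalamus peak was 1684 bp long, the muscle peak 1223 bp, and the liver peak 667 bp, and each shorter peak lay inside the longer. The hypothalamus and liver summits fell on the same base, 21711833, and the muscle summit was 55 bp upstream of it. In percentiles of their own whole lists, the summits were at 95.5, 93.8, and 71.9, and the AUCs at 95.4, 94.0, and 83.6. ATF2 was therefore among the strong peaks in hypothalamus and muscle. It stood lower in the whole liver list, where its percentile depended on which peaks were ranked, as given below.

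In the region between WIPF1 and SCRN3, the summit −log10 p reached 13.65 (percentile 87.4) for hypothalamus, 6.77 (70.0) for muscle, and 3.80 (13.4) for liver. The hypothalamus peak extends over 1910 bp from 22318895 to 22320804, the muscle peak over 767 bp, and the liver peak over 267 bp from 22319494 to 22319760. The 3 summits lay within 20 bp of each other. This region is 77.6 kb from the SCRN3 start site, the nearest start site of a positioned gene.

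The other shared regions were open in hypothalamus and muscle. Within CHN1, the hypothalamus peak from 21859063 to 21859400 had a summit −log10 p of 8.80 (percentile 72.2) against 5.11 (45.6) in muscle, with summits 36 bp apart. Between CHRNA1 and WIPF1, the hypothalamus peak from 22189336 to 22190033 had 10.80 (percentile 80.0) against 3.84 (13.2) in muscle, with summits 69 bp apart. In all 4 regions the muscle peak lay inside the hypothalamus peak. Over the whole lists it stood at a lower percentile by summit in each of them, and liver stood below muscle in both regions where it was present. At ATF2 the order of hypothalamus and muscle turned when only peaks on chromosomes 1 to 29 and X were ranked. Muscle was then at percentile 96.9 by summit and 95.6 by AUC, against 95.5 and 95.3 in hypothalamus. The liver peak at ATF2 rose on this ranking from percentile 71.9 to 86.5 by summit and from 83.6 to 90.8 by AUC. It stayed below the peaks of both other tissues.

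**Figure D3:**
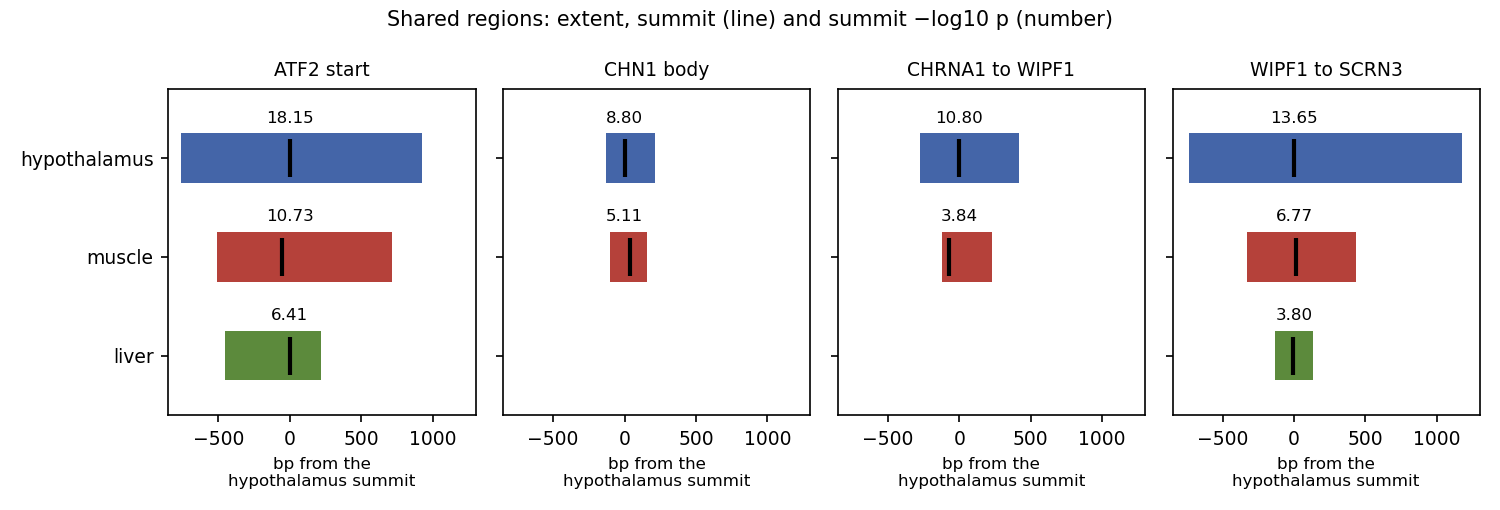
Extent of the peaks in the 4 shared regions of the window, in bp from the hypothalamus summit (x axis), with the summit as a black line and its −log10 p as a number. In each region the muscle peak lies inside the hypothalamus peak, and the summits are at most 69 bp apart.

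Neither of the 2 liver peaks was alone (0 of 2, where 9.93% of the whole liver list and 7.78% of its peaks on chromosomes 1 to 29 and X had no overlap), a number too small to read. Hypothalamus held most of the window's peaks, and 42 of its 46 (91.3%, Wilson 95% interval 79.7 to 96.6) had no overlap in the other lists, against 67.9% of the whole hypothalamus list and 74.8% of its peaks on chromosomes 1 to 29 and X. The interval covers counting error only, and neighboring peaks are not independent. The hypothalamus peaks numbered 57.5 per Mb in the window against 24.0 per Mb over chromosome 2. For muscle the densities were 7.5 and 10.3 per Mb, and for liver 2.5 and 3.56 per Mb. Of 3267 windows of 800 kb laid end to end over chromosomes 1 to 29 and X, 12.5% held as many hypothalamus peaks or more, 47.4% as many muscle peaks or more, and 50.7% as many liver peaks or more. Hence the window was rich in peaks in hypothalamus and near the middle in muscle and liver. With the lists cut to equal numbers, the strongest 22291 peaks of each by summit, the window held 10 hypothalamus, 5 muscle, and 2 liver peaks.

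The hypothalamus peaks were not evenly spread. The 114 kb between CHRNA1 and WIPF1 held 17 peaks (14.9 per 100 kb), and the WIPF1 gene body held 7 in 41.1 kb (17.0 per 100 kb). The CHN1 gene body held 6 in 202 kb (2.97 per 100 kb), and the 39.0 kb between CHN1 and CHRNA1 held 2 (5.13 per 100 kb). Of the 45 gaps between neighboring hypothalamus peaks, 8 were under 1 kb, and the median gap was 7183 bp. By summit, 16 hypothalamus peaks fell in gene bodies and 30 outside the models.

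Among the hypothalamus-only peaks, the largest AUC was 8349, in the peak from 22129451 to 22131648 (2198 bp, summit −log10 p 11.85, percentile 83.0), whose summit is 45.7 kb downstream of the CHRNA1 start site. The highest summit was 15.19 (percentile 90.6), in the peak from 22233715 to 22235183 in WIPF1. The start site of the WIPF1 model itself was not covered in any list, and the nearest hypothalamus peak was 3220 bp from it. A further strong peak, from 22274250 to 22275127, had a summit −log10 p of 11.65 (percentile 82.4). In contrast, 19 of the 46 hypothalamus peaks had a summit −log10 p under 5. The median over the 46 was 5.58 against 5.99 for the whole list, and the median AUC was 777 against 842, so the hypothalamus members were many rather than strong. The 4 hypothalamus peaks shared with another tissue had summits from 8.80 to 18.15, with a median of 12.23. The 42 others had summits from 3.54 to 15.19, with a median of 5.31. The ranges overlapped, but most of the 42 lay below the lowest shared summit.

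**Figure D4:**
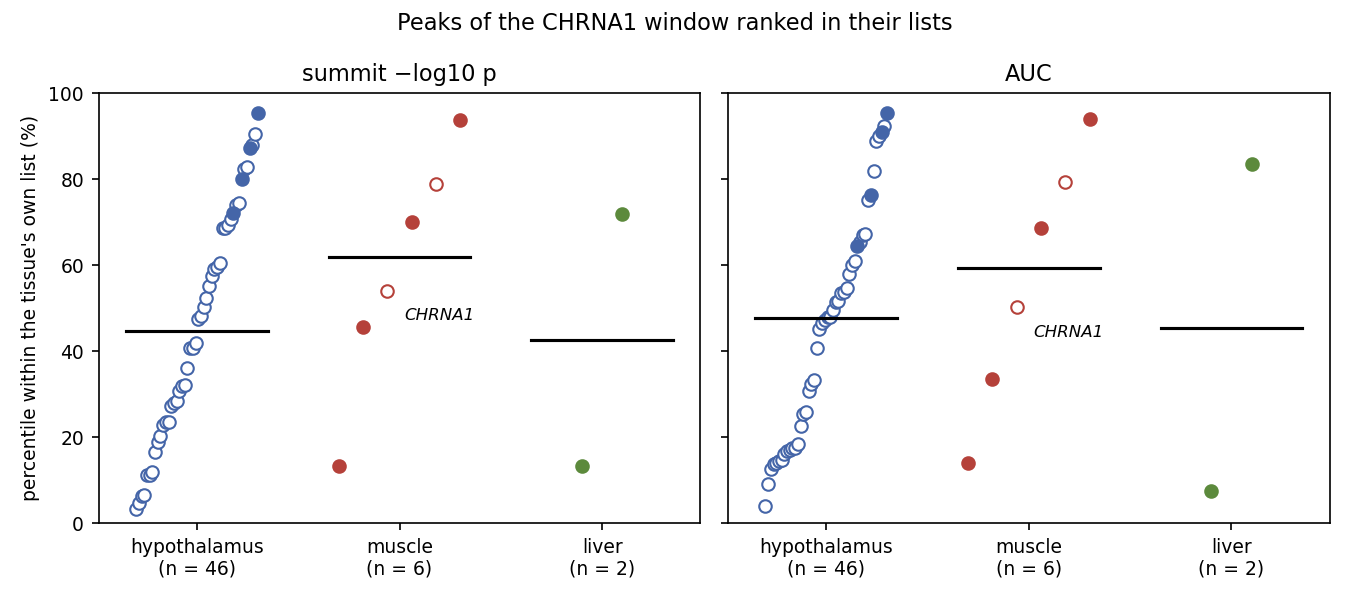
Percentile of each peak of the window in its own tissue's list (y axis, %), by summit −log10 p on the left and by AUC on the right, with open circles for peaks of that list only, filled circles for shared peaks, and a line at the median. The CHRNA1 peak (54.0 and 50.2) sits near the middle of the muscle list, and the hypothalamus peaks cover most of the range.

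Of the 6 start sites in the window, counting the 2 of CHN1, 4 were covered in hypothalamus, 2 in muscle, and 1 in liver. Among the 654 start sites with a position on chromosome 1 and on chromosome 2 up to 72.6 Mb, hypothalamus peaks covered 69.1%, muscle peaks 57.8%, and liver peaks 39.3%. A start site has a position here only where the authors' annotation named it as nearest to some peak, so these shares are raised. Only part of that annotation was available, so a gene without a position may still be nearest to a peak. ATF2 was covered in all 3 tissues. The longer CHN1 model was covered in hypothalamus alone, by a peak of 1488 bp from 21842519 to 21844006 with its summit 3 bp past the start site (summit −log10 p 13.93, percentile 88.0). The shorter CHN1 model was also covered in hypothalamus alone, by a weak peak from 21996879 to 21997117 (4.29, percentile 20.3). The SCRN3 start site was covered in hypothalamus alone, by a peak from 22396515 to 22397764 (9.29, percentile 74.5). CHRNA1 was the only start site of the window covered in muscle alone.

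A start site covered by muscle and by no other list was rare, with 12 of the 654 (1.83%, Wilson 95% interval 1.05 to 3.18), against 37.5% covered in all 3 lists, 18.5% in hypothalamus and muscle, 11.8% in hypothalamus alone, 1.38% in hypothalamus and liver, 0.459% in liver alone, and 28.6% in none. CHRNA1 was 1 of these 12, as known when it was chosen. The 5 genes of the set whose summit −log10 p was closest to the 5.59 of CHRNA1 were B3GALNT1 (5.43), RCAN1 (6.02), SMCO1 (4.99), POPDC2 (4.78), and MIR6501 (4.71). B3GALNT1 encodes a glycosyltransferase, RCAN1 an inhibitor of the phosphatase calcineurin, SMCO1 a membrane protein, POPDC2 a cyclic AMP binding protein of striated muscle, and MIR6501 a microRNA. Likeness was measured in the muscle list alone, by the difference in summit −log10 p, since none of these genes had a value in the other lists. Over the 12 peaks the summit ranged from 3.59 (TM4SF1) to 7.65 (KLHL41, a kelch protein of the sarcomere, named after its value was seen), with a median of 4.75, and 2 were above CHRNA1. The summits lay from 628 bp upstream to 418 bp downstream of the start site, 8 of 12 of them upstream. At 330 bp, the CHRNA1 peak was among the shorter of the set, with 9 of the 12 longer.

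**Figure D5:**
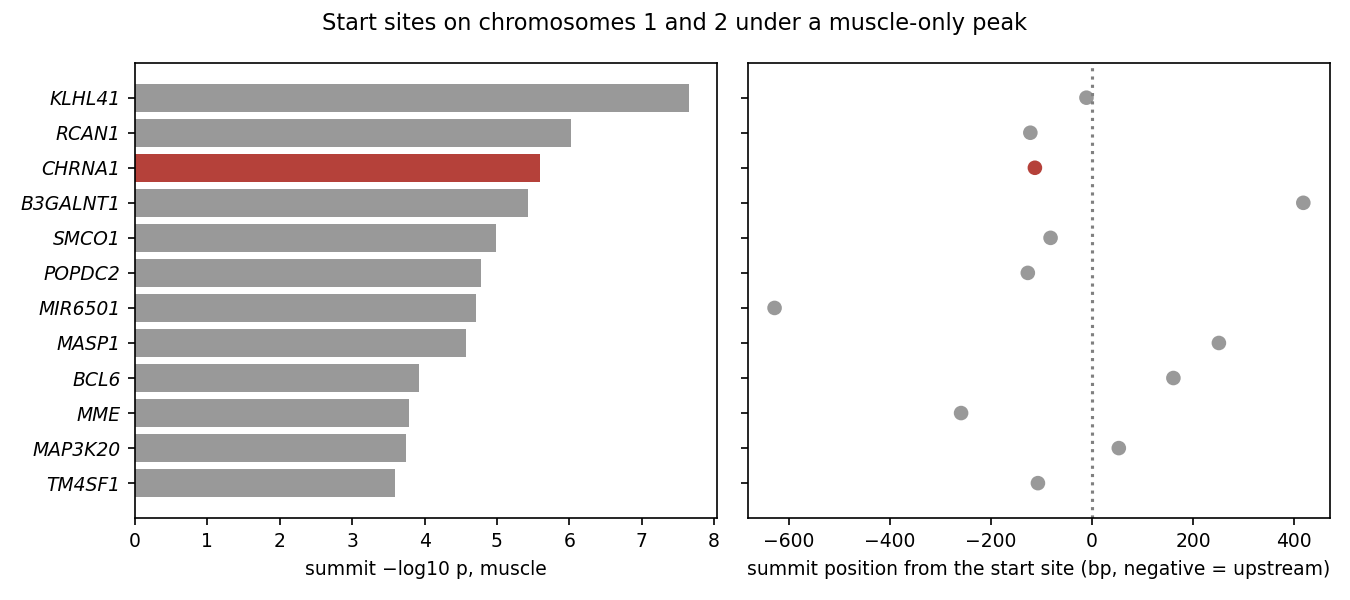
The 12 start sites on chromosomes 1 and 2 (up to 72.6 Mb) covered by a muscle peak with no overlap in the other lists. Bars give the summit −log10 p in muscle (left), and points the distance of the summit from the start site in bp (right). CHRNA1 (red) has 2 of the 12 above it by summit, and its summit lies 113 bp upstream.

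Other genes of the neuromuscular junction could be followed only in part. Of a list of 17, 3 had a position in the part of the annotation that was available. Their start sites were covered in muscle for 2, in hypothalamus for 1, and in liver for 1, against 57.8%, 69.1%, and 39.3% of the 654 start sites above. Those 654 lie on chromosomes 1 and 2, whereas ACHE, 1 of the 3 genes, is on chromosome 25, so the sets differ. CHRNA1 itself is among the 2 genes covered in muscle and was chosen for that peak. ETV5, a transcription factor of the synaptic nuclei of muscle that is also used in many other tissues, was covered in all 3 tissues, with a summit −log10 p of 22.88 (percentile 99.2) in hypothalamus, 10.79 (93.9) in muscle, and 5.92 (65.7) in liver. ACHE, the enzyme that breaks down acetylcholine, had no peak over its start site in any list, and the nearest peak was 79 bp away in hypothalamus, 2922 bp in muscle, and 3128 bp in liver. ETV5 and ACHE therefore did not share the muscle-only pattern of CHRNA1. None of the 11 other nicotinic subunits had a position. Of 7 myogenic factors, MYOG and MEF2D had one. MYOG (myogenin), a basic helix-loop-helix factor that binds E-boxes in muscle genes, was covered in muscle alone (summit −log10 p 4.29, percentile 26.3), with the nearest peak of either other list 20215 bp away. MEF2D was covered in all 3 tissues, where the summits reached 18.20 (percentile 95.6) for hypothalamus, 7.84 (80.1) for muscle, and 4.88 (45.5) for liver.

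The tissue labels could be checked at few markers. The start of OLIG1, a factor of oligodendrocytes, was covered in hypothalamus alone (summit −log10 p 14.01), and that of AMBP, a plasma protein precursor made by hepatocytes, in liver alone, by a peak near the bottom of the liver list (3.30, percentile 2.2). APOA2, an apolipoprotein of hepatocytes, was covered in no list, with the nearest liver peak 751 bp away. None of the 10 muscle markers on the list had a position, so the muscle label could not be checked with them. Of the positioned myogenic factors above, MYOG was covered in muscle alone, by a weak peak (percentile 26.3). MEF2D was covered in all 3 tissues.

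The window ends did not cut a peak. The last peaks before it, 10.8 to 11.3 kb away in the 3 lists, cover the ATP5MC3 start site, and their summits reached 14.25 for hypothalamus, 6.73 for muscle, and 3.61 for liver. The first after it, 27.2 to 27.7 kb away, cover the OLA1 start site, with 12.49, 8.37, and 5.62. The members nearest to the ends are the ATF2 peaks and, on the other side, a hypothalamus peak from 22444287 to 22445151 with a summit of 8.55. The CHRNA1 locus thus lay between start sites open in all 3 tissues.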

How the data were processed

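ATAC-seq libraries of hypothalamus, muscle, and liver from 3 heifers (9 libraries) were aligned by the authors to ARS-UCD1.2 with HISAT2, and peaks were called with Genrich 0.6.1, which removed PCR duplicates and combined the p values of the heifers by Fisher's method. A read with several alignments counts as a fraction at each place, which can raise peaks in repeats. The deposited values are, for each peak, a position, an AUC (the signal, not scaled between lists), a summit −log10 p (not corrected for multiple tests), and a score of at most 1000, which was not used for ranking. The lists hold no counts, and the depth of the libraries was not used here.

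Starts were counted from 0 in the lists and are printed from 1. Overlaps (1 bp or more), percentiles, and Wilson intervals were computed with scipy 1.17.1, pandas 2.3.3, and numpy 2.4.6 in python 3.11.15, plots with matplotlib 3.10.9, and the code was tested on simulated data. Gene models on ARS-UCD1.2 were those named in the available part of the authors' annotation. The neighbor order came from RefSeq genes of NIAB-ARS_B.indTharparkar. The authors' own annotation values were not used as results. Sequences were not analysed here.

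The window, gene lists, and naming rule were chosen with earlier results of these data known. The named genes are CHRNA1, genes in the window, the neuromuscular junction, nicotinic, and myogenic lists, the tissue markers, and the 5 muscle-only start sites closest to CHRNA1 in summit. The alternatives were a summit of at least 5, equal list sizes, the middle 400 kb, other rules for overlap, other distances to a start site, and other backgrounds for percentiles. No test was made, since each tissue has 1 list.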

Additional observations from a re-analysis of the deposited data

How the results depend on the processing

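Of 38 alternatives to 14 results, 23 left the value within 1.5 times or within its interval and 15 moved it. Some of the 23 could not move much: equal list sizes leave the liver list whole, and the 50% rule cannot lower a count of peaks alone. The interval of a percentile treats peaks as independent, so this tally does not measure robustness. With peaks under a summit −log10 p of 5 left out, the window held 27 hypothalamus peaks (24 of them alone) and 1 liver peak. The share of all hypothalamus peaks alone at that cut is not given, so the 24 cannot be read against the list. At the same cut, 1 interval was covered in all 3 lists in place of 2. With equal list sizes, hypothalamus fell to 10 peaks. The middle 400 kb held 3 muscle and 0 liver peaks. The CHRNA1 peak moved from percentile 54.0 by summit to 57.9 on chromosomes 1 to 29 and X. Among the 11439 muscle-only peaks of the whole list, on and off these chromosomes, it was at 75.96 by summit. By AUC it moved from 50.2 to 69.4 among those 11439 and to 68.2 per bp (68.25). By length it moved from 28.7 to 22.1 on chromosomes and to 34.7 among the 11439. Neuromuscular junction genes with a hypothalamus peak numbered 2 within 1 kb and 2 within 3 kb of the start site, in place of 1. These moves follow from fewer peaks, a shorter window, another background, or a wider distance. The CHRNA1 peak was muscle-only under every rule for overlap, of which only the rule of a peak within 1 kb could have changed this. No result was recomputed without a heifer, and no paired analysis was possible because each tissue has 1 consensus list that pools the heifers. Peaks below the limits of the peak caller are not listed, and the depth behind each list was not used here.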
